A study of Macaca mulatta with 8 samples.

Results

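The genes described here are 8 markers of reactive gliosis in Müller glia: GFAP, VIM, NES, CD44, LCN2, A2M, CLU and CRYAB. They were chosen by name, with earlier results of these data known, and 7 of the 8 were found by symbol among the 26533 features of the count tables. A2M was not analysed here. The levels were read in Müller glia by retinal area and eye, and then in the other cell classes.

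The data were single-cell RNA libraries of dissociated retina from 2 wild-type male rhesus macaques, NHP1 (5 years old) and NHP2 (6 years old), made as 8 libraries in 4 groups of 2. Each group held the right and the left eye of 1 animal. NHP1_uninjected was retina labelled uninjected from NHP1, both of whose eyes had received AAV2-CAG-hRPE65, in which the CAG promoter is active in most cell types. NHP2_uninjected, NHP2_hRPGR and NHP2_mScarlet were 3 areas of each eye of NHP2: retina outside the blebs, the bleb of AAV8-GRK1-hRPGR, and the bleb of AAV8-GRK1-mScarlet. A bleb is the pocket of fluid that a subretinal injection leaves, and GRK1 is a promoter of photoreceptors, so neither NHP2 transgene was driven in glia by design. Transcripts of both were still counted among Müller glia-like cells, as given below. The paper reports off-target hRPGR at a low level but in many Müller glia of the treated areas, and a similar pattern for mScarlet. A bleb also differs from uninjected retina by the injection itself. All eyes had a vitrectomy and periocular triamcinolone, a steroid. The left eyes also had repeated intravitreal adalimumab, an antibody to TNF, so eye and adalimumab cannot be told apart. With 2 eyes of 1 animal in each NHP2 group, p-values measure the spread between these libraries only, and the hRPGR and mScarlet vectors, which were also made to different grades, cannot be told apart from their doses and sites.

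Müller glia span the retina from its inner to its outer limit, clear glutamate and potassium, and support the visual cycle of cones. After injury they become reactive: they enlarge, fill their processes with intermediate filaments, and make adhesion, acute phase and chaperone proteins. Little GFAP in Müller glia and much of it after damage is the classical sign. GFAP and VIM build the filaments, and NES is a filament protein of progenitors that can return in reactive glia. CD44 is a cell surface receptor for hyaluronan at the apical processes of Müller glia. LCN2 is a secreted protein that binds iron carriers and is made in inflammation, and CLU is a secreted chaperone also called clusterin. CRYAB is a small heat shock protein that binds unfolded proteins and filaments.

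The promoters of the 3 members with the largest differences between areas in Müller glia are shown for what lies upstream of them. Each is the 250 bases before the gene's start in RefSeq's annotation of Mmul_10, read on the gene's strand, which is the minus strand for all 3. GFAP lies on chromosome 16 at 56169389 to 56180984 and its promoter at chr16:56180985-56181234. CD44 lies on chromosome 14 at 30238717 to 30330444 and its promoter at chr14:30330445-30330694. LCN2 lies on chromosome 15 at 12445748 to 12450081 and its promoter at chr15:12450082-12450331. Capitals mark matches to any of 3 motifs, each of which reads alike on both strands: the STAT element TTCNNNGAA, the AP-1 element TGANTCA and the heat shock element GAANNTTC.
GFAP: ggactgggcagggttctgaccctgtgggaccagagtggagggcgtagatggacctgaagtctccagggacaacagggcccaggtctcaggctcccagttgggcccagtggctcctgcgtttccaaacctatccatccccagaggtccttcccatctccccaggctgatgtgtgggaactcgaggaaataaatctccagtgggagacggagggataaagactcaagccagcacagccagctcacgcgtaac
CD44: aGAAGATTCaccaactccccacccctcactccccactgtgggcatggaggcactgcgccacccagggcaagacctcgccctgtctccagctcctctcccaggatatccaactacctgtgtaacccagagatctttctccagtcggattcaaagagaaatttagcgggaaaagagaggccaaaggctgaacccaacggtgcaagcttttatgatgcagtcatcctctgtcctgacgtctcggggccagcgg
LCN2: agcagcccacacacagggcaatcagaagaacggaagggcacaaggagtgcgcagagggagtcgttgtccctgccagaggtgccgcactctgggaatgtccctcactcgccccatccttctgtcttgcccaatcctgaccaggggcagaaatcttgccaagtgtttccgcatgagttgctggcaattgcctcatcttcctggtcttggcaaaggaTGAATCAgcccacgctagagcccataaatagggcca
The GFAP window held none of the 3 motifs. The CD44 window held 1 heat shock element, 249 bases before the start, and the LCN2 window held 1 AP-1 element, 36 bases before it. Of 20782 promoter windows of this length, 5.98% held the STAT element, 5.15% the AP-1 element and 5.18% the heat shock element.

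The libraries held 90634306 to 146519011 UMIs (counted molecules) each and 9562 to 15080 cells each. After removal of likely doublets, 83192 cells fell into 58 clusters, and 5 clusters of 7286 cells were called Müller glia-like from their markers, with 537 to 1315 cells and 4047263 to 9290903 UMIs per library. Levels are given as CPM, the UMIs of a gene per 1000000 UMIs summed over the cells of a class in a library. In the Müller glia-like cells the 10 Müller markers summed to 50384 to 62509 CPM in every library, with at most 1 of them without a UMI. Their sum was lower in the mScarlet bleb (53511 to 56966) than in the uninjected area of NHP2 (59827 to 59983), without overlap. Single markers went both ways without overlap. TF, the largest of them, stood at 27125 and 31050 CPM (right, then left) against 33951 and 38732, and DKK3 was lower too. GLUL, at 9155 and 8201 against 7451 and 5428, was higher, as were SLC1A3 and KCNJ10. The 8 astrocyte markers summed to 328 to 357 CPM in NHP1, 563 to 685 in the uninjected area of NHP2, 469 to 505 in the hRPGR bleb and 459 to 540 in the mScarlet bleb, and PAX2, which defines retinal astrocytes, was at 0 to 3.0 CPM. Summed markers of further classes also differed in these cells between the mScarlet bleb and the uninjected area of NHP2 without overlap. Those of fibroblasts and melanocytes stood at 184 to 192 against 55.6 to 139.9 CPM, of the pigment epithelium at 507 to 582 against 396 to 436, of bipolar cells at 342 to 344 against 294 to 295, of lens at 1218 to 1243 against 1075 to 1101, and of B and plasma cells at 38.1 to 48.0 against 21.3 to 25.6. The lens sum was nearly all CRYAA, an alpha crystallin, at 1212 and 1241 CPM (right, then left) against 1071 and 1096, and the lens genes MIP and LIM2 gave no UMI. Lower ones were those of rods, at 1922 to 2240 against 3686 to 4461, of cones, at 15.3 to 21.2 against 30.4 to 209, of pericytes, at 40.2 to 46.5 against 58.3 to 60.0, and of T and NK cells, at 17.3 to 19.1 against 19.7 to 38.3. Their part in the differences of the members given here was not tested, and how often single genes separated these libraries in this way was not counted.

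Some libraries went against their labels or stood apart. In NHP2 the uninjected right library held 9748 UMIs of the codon-optimised RPGR transgene (coRPGR) in 1813 cells, whereas the uninjected left library held 0. In NHP1 the left library held 32627 UMIs of the RPE65 transgene (huRPE65) in 7021 of its 15080 cells, and the right library 13 UMIs. The paper reports this transgene as almost absent outside the bleb. The Müller glia-like cells held 3134 and 1139 UMIs of coRPGR in the hRPGR bleb (right, then left) and 162 and 0 in the uninjected area of NHP2. They held 136 and 90 UMIs of mScarlet in the mScarlet bleb. Whether these were made in the Müller cells themselves was not tested. The Müller cells of the uninjected left library and of both NHP1 libraries lay mostly in clusters 14 and 22, and those of both mScarlet libraries, the right hRPGR library and the uninjected right library mostly in clusters 15 and 44. The left hRPGR library was spread over all 4. Libraries shared 4992 cell barcodes over all pairs, at most 2.16% of the smaller library of a pair.

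In Müller glia, GFAP and CD44 were highest in the mScarlet bleb, intermediate in the hRPGR bleb and lowest in the uninjected area of NHP2, LCN2 was higher in both blebs, CLU and CRYAB differed by less, and VIM was level. None of the 6 members tested passed edgeR's quasi-likelihood test at an adjusted p of 0.05 in any area comparison, and GFAP and CD44 came nearest. In the mScarlet bleb against the uninjected area, 0 of 6 members were called, where 0.324% of 12966 genes were called, and 4 of the 6 had an unadjusted p under 0.05, where 14.6% of all genes did. DESeq2 called 2 of the 6, GFAP and CD44, and 410 of all genes. In the hRPGR bleb against the uninjected area, 0 members were called, where 0.00771% of genes were called, and 3 had an unadjusted p under 0.05, where 3.6% of genes did. DESeq2 called none of them. The 2 blebs share their uninjected libraries, so their values are given side by side. The mScarlet bleb against the hRPGR bleb called 0 members, where 0.00771% of genes were called, with 2 members under an unadjusted p of 0.05, where 11% of genes were, and 0 by DESeq2.

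**Figure D1:**
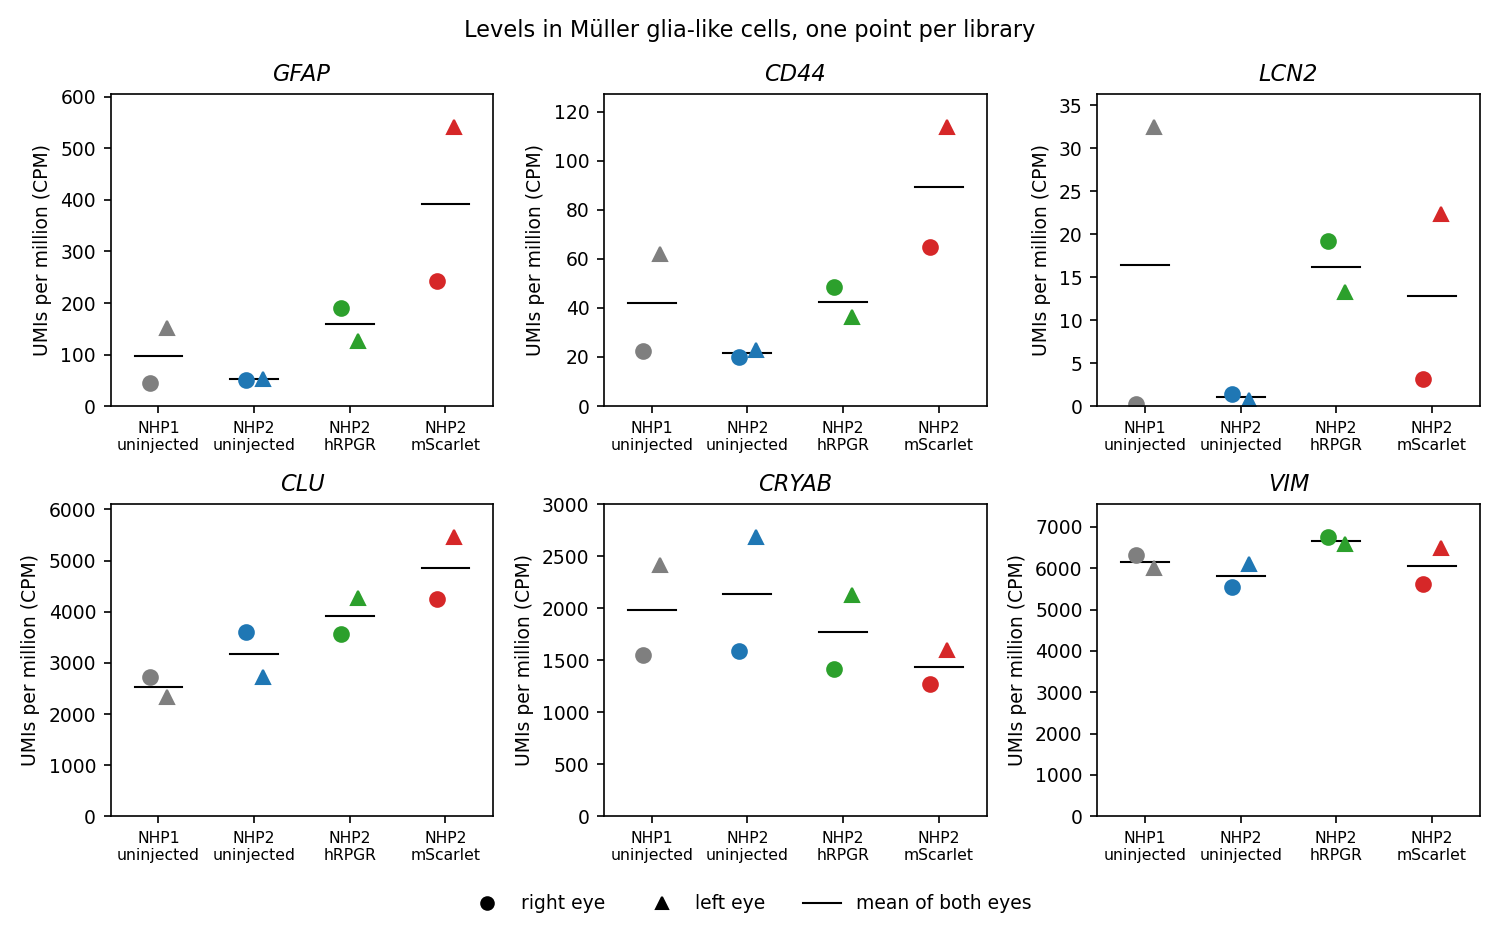
Levels of 6 genes in Müller glia-like cells in CPM (vertical axes from 0), by group along the horizontal axes; circles are right eyes, triangles left eyes and bars the mean of both. GFAP and CD44 of the mScarlet bleb lie above all 4 libraries labelled uninjected in both eyes, and VIM lies between 5551 and 6751 CPM throughout.

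GFAP, the filament protein that marks gliosis, stood in the uninjected area of NHP2 at 51.1 CPM (right eye) and 53.0 CPM (left eye), in the hRPGR bleb at 191 and 127, and in the mScarlet bleb at 242 and 542. In NHP1 it stood at 45.2 CPM (right) and 151 CPM (left). The uninjected area did not overlap with either bleb, the blebs did not overlap with each other, and the left NHP1 library lay among those of the hRPGR bleb. With 2 libraries per area such a separation can arise by chance. The share of all genes so separated was not counted, here or for the other members. In the same eye, the mScarlet bleb was 4.73-fold above the uninjected area on the right and 10.2-fold on the left, and the hRPGR bleb 3.73-fold and 2.39-fold. The edgeR log2 difference of the mScarlet bleb from the uninjected area was 2.85 (SE 0.400, n = 2 against 2, edgeR adjusted p = 0.0632). Over 14 other settings the edgeR or DESeq2 adjusted p ran from 5.93e-06 to 0.249, and 4 lay under the threshold. The hRPGR bleb differed by 1.60 (SE 0.386, edgeR adjusted p = 1.0), and the mScarlet bleb was above the hRPGR bleb by 1.25 (SE 0.377, edgeR adjusted p = 0.351). The order of the 3 areas was alike in both eyes. Without the uninjected right library, which held coRPGR, the mScarlet bleb differed by 2.85 as well (edgeR adjusted p = 0.0506). Astrocytes also make GFAP. The summed astrocyte markers above were not higher in the blebs than in the uninjected area, but PAX2 was in the right eye, at 0 UMIs in the uninjected area, 16 in the hRPGR bleb (2.89 CPM) and 16 in the mScarlet bleb (3.0 CPM), against 8, 6 and 1 UMIs in the left eye. In the mScarlet bleb single markers of the list went both ways without overlap. EDNRB was higher, at 157 and 148 CPM (right, then left) against 128 and 79.5, and so was IGFBP2, at few UMIs. S100B, the largest of the list, was lower, at 340 and 271 against 390 and 557, and so were ALDH1L1 and, at few UMIs, GJA1. The part of astrocytes in the GFAP values was not tested. Without the cells of the cluster with PAX2 the log2 difference of GFAP was 2.79 for the mScarlet bleb and 1.58 for the hRPGR bleb (edgeR adjusted p = 0.0523 and 0.967).

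The differences of GFAP varied between clusters of Müller cells. In cluster 15, which all libraries held, GFAP stood at 73.3 CPM in the right and 74.7 in the left uninjected library, at 184 and 244 in the hRPGR bleb, and at 121 and 622 in the mScarlet bleb. Fitted on that cluster alone, the mScarlet bleb differed from the uninjected area by 2.22 and the hRPGR bleb by 1.34 on the log2 scale, with edgeR adjusted p-values of 0.249 and 1.0. In cluster 15 the right eyes of the 2 blebs stood in the opposite order to that over all Müller cells. In cluster 44, GFAP stood at 44.8 CPM in the right uninjected, 209 in the right hRPGR and 269 in the right mScarlet library, and the left uninjected library had no cells there. Clusters 14 and 22 held 40.5% and 21.0% of the Müller cells of the left hRPGR library and 50.8% and 33.4% of those of the left uninjected library. There GFAP stood at 69.9 and 66.4 CPM in the left hRPGR library and at 60.2 and 53.1 in the left uninjected one, and CD44 at 22.5 and 25 against 20.5 and 23.2. In the left eye the hRPGR bleb thus lay only slightly above the uninjected area within the clusters that held most of these cells, and further above it in cluster 15. The part of cluster make-up in the differences over all Müller cells was not tested.

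VIM, the filament protein that Müller glia hold at all times, was at similar levels in all libraries when all Müller cells were summed. It stood at 5551 and 6093 CPM in the uninjected area of NHP2 (right, then left), 6751 and 6592 in the hRPGR bleb, 5629.9 and 6491 in the mScarlet bleb, and 6324 and 6004 in NHP1. The groups overlapped except that both hRPGR libraries lay above the rest of NHP2. The log2 difference was -0.01 (edgeR adjusted p = 0.990) for the mScarlet bleb and 0.19 (edgeR adjusted p = 1.0) for the hRPGR bleb. In cluster 15 VIM varied more, at 4707 and 3625 CPM in the uninjected area (right, then left), 6573 and 4855 in the hRPGR bleb, and 3494 and 5830 in the mScarlet bleb. There each hRPGR library lay above the uninjected one of its eye, and the mScarlet bleb lay below it on the right and above it on the left. NES gave 0 to 3 UMIs in each Müller library other than the left NHP1 library, which had 30 UMIs (3.87 CPM), and it was too low to be tested. Of 9 other genes for partners of intermediate filaments, 6 were tested, and edgeR called none in any comparison. Their median log2 difference in the mScarlet bleb was 0.13, beside a median of 0.00 over all genes. DST and MACF1, linkers of filaments to the other parts of the cytoskeleton and the 2 highest of the list, differed by 0.30 (edgeR adjusted p = 0.327) and -0.02 (edgeR adjusted p = 0.969).

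CD44, the hyaluronan receptor, stood at 20.1 and 23.0 CPM in the uninjected area of NHP2 (right, then left), 48.6 and 36.2 in the hRPGR bleb, and 64.9 and 114 in the mScarlet bleb. In NHP1 it stood at 22.2 CPM (right) and 61.9 CPM (left). As with GFAP, the 3 areas of NHP2 did not overlap and the left NHP1 library was above the right. In cluster 15 CD44 stood at 13.7 and 20.4 CPM in the uninjected area (right, then left), 41.8 and 44.4 in the hRPGR bleb and 29.9 and 71.4 in the mScarlet bleb. There the 2 blebs overlapped, and in the right eye their order was reversed. The mScarlet bleb differed from the uninjected area by 1.98 on the log2 scale (SE 0.289, edgeR adjusted p = 0.0662, from 3.39e-07 to 0.411 over the other settings). The hRPGR bleb differed by 0.96 (SE 0.290, edgeR adjusted p = 1.0) and the 2 blebs from each other by 1.02 (SE 0.277, edgeR adjusted p = 0.318). Myeloid cells hold more CD44 than Müller glia, and the 9 myeloid markers summed to 6.8 to 10.4 CPM in the Müller cells of the uninjected area, 13.6 to 30.5 in the hRPGR bleb and 18.4 to 31.8 in the mScarlet bleb. Their part in the CD44 values was not tested. Of 12 genes for CD44 ligands, their enzymes and the linkers of CD44 to actin, 8 were tested and none was called in any comparison. SPP1, the ligand osteopontin, differed by -0.46 in the mScarlet bleb (edgeR adjusted p = 0.275), and EZR, the linker ezrin, by 0.22 (edgeR adjusted p = 0.487).

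**Figure D2:**
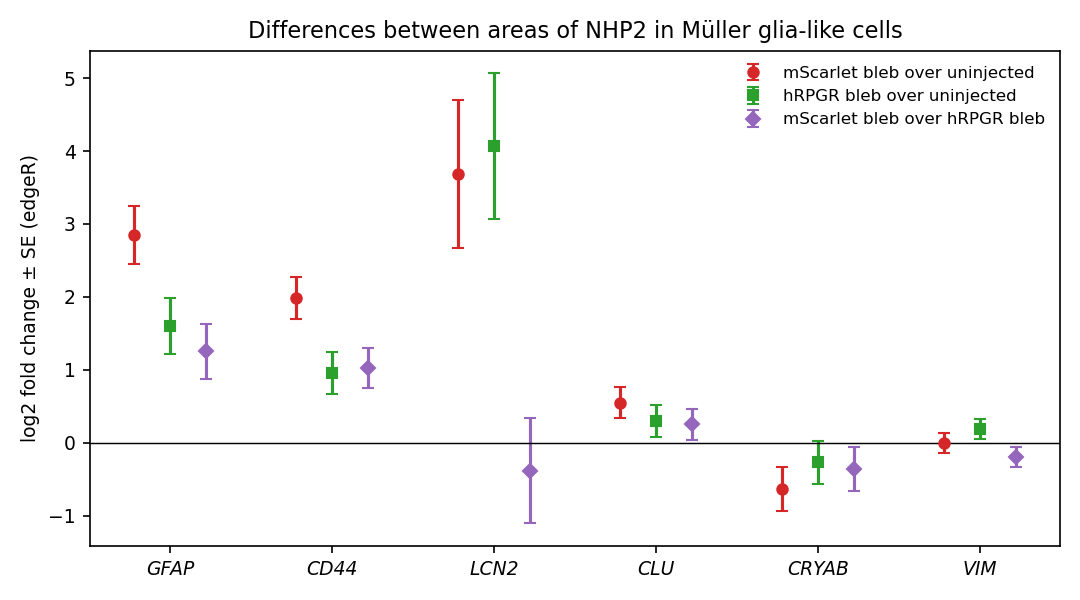
Differences between areas of NHP2 in Müller glia-like cells, as edgeR log2 fold changes with their SE (vertical axis) for 6 genes; circles are the mScarlet bleb over the uninjected area, squares the hRPGR bleb over it, and diamonds the mScarlet over the hRPGR bleb. GFAP lies at 2.85, 1.60 and 1.25 in that order, CD44 at 1.98, 0.96 and 1.02, and VIM near 0.

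LCN2, the iron carrier binding protein of inflammation, was rare in Müller glia of the uninjected area: 7 UMIs on the right (1.45 CPM) and 6 on the left (0.646 CPM). It stood at 19.2 CPM (106 UMIs) and 13.2 (76 UMIs) in the hRPGR bleb and at 3.19 (17 UMIs) and 22.3 (123 UMIs) in the mScarlet bleb. NHP1 had 0.247 CPM in the right eye, the lowest of all libraries, and 32.5 in the left, the highest. Few cells carried these UMIs: 18 of 855 Müller cells in the right and 10 of 1041 in the left hRPGR library, 10 of 747 and 31 of 961 in the mScarlet bleb, 3 of 707 and 4 of 1315 in the uninjected area, and 1 of 537 and 28 of 1123 in NHP1. At 3000 UMIs per cell the share was 1.94% and 0.892% in the hRPGR and 0.844% and 2.33% in the mScarlet bleb, beside 0.303% and 0.499%, and 0.614% and 0.600%, of rods in the same libraries. Exact 95% intervals of Müller cells and rods overlapped in the left hRPGR library (0.328 to 1.93 and 0.305 to 0.769) and in the right mScarlet library (0.230 to 2.15 and 0.398 to 0.905). These intervals cover counting error over cells of 1 library only, and whether the share lay above that of rods was not tested. In CPM, all 4 bleb libraries lay above both uninjected ones of NHP2, but the right mScarlet library lay close to them. The hRPGR bleb differed by 4.07 on the log2 scale (SE 0.999, edgeR adjusted p = 1.0) and the mScarlet bleb by 3.68 (SE 1.02, edgeR adjusted p = 0.189). Without the left mScarlet library the latter was 1.65 (edgeR adjusted p = 0.638).

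CLU, the secreted chaperone, stood at 3608 and 2723 CPM in the uninjected area of NHP2 (right, then left), 3572 and 4262 in the hRPGR bleb, 4255 and 5457 in the mScarlet bleb, and 2729 and 2324 in NHP1. Both mScarlet libraries lay above the uninjected ones, and the hRPGR libraries overlapped with them. The log2 difference was 0.55 (SE 0.213, edgeR adjusted p = 0.315) for the mScarlet bleb and 0.30 (edgeR adjusted p = 1.0) for the hRPGR bleb. CLU differed between the Müller clusters: it was at 4317 to 6691 CPM in cluster 44, in the 5 libraries with at least 20 cells of it, and at 872 to 2856 in cluster 15, in all 8. Within cluster 15 the mScarlet bleb lay above the uninjected area in the left eye (2856 against 872) and below it in the right (1359 against 1750.4). Of 10 genes for receptors and partners of A2M, CLU and LCN2, 8 were tested and none was called. APOE, a lipid carrier that shares receptors with CLU, differed by 0.22 in the mScarlet bleb (edgeR adjusted p = 0.609), and SLC22A17, a receptor of LCN2, by -0.20 (edgeR adjusted p = 0.649).

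CRYAB, the small heat shock protein, was the one of the 6 tested members with a lower mean in both blebs. It stood at 1589.9 and 2682 CPM in the uninjected area of NHP2 (right, then left), 1416 and 2128 in the hRPGR bleb, and 1273 and 1596 in the mScarlet bleb. The log2 difference was -0.63 (SE 0.298, edgeR adjusted p = 0.403) for the mScarlet bleb and -0.27 (edgeR adjusted p = 1.0) for the hRPGR bleb. Within each eye both blebs lay below the uninjected area, at 0.89 and 0.794 of its level in the hRPGR bleb (right, then left) and 0.801 and 0.595 in the mScarlet bleb. In cluster 15 this held in the right eye (1856 CPM uninjected, 1661 in the hRPGR and 1339 in the mScarlet bleb) but not in the left (1541, 1621 and 1885). Across eyes the groups overlapped, and the left library was the higher one in all 3 areas and in NHP1, where it was at 2412 against 1547. Of 16 small heat shock and chaperone genes, 14 were tested and none was called in any comparison, with 4 higher and 10 lower in the mScarlet bleb and a median of -0.15. CRYAA, the other alpha crystallin, differed by 0.11 (edgeR adjusted p = 0.712) and HSP90AA1, a general chaperone, by -0.36 (edgeR adjusted p = 0.257).

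Between the left and right eyes of NHP2, with area as a term, 0 members and 0% of 12966 genes were called by edgeR. DESeq2 called 0 members and 25 genes, and 416 genes had an unadjusted edgeR p under 0.05. CRYAB was the 1 member with an unadjusted p under 0.05: it was higher in the left eyes by 0.56 on the log2 scale (SE 0.126, edgeR adjusted p = 1.0). The other 5 members differed by 0.07 (CLU) to 0.66 (LCN2), with GFAP and CD44 at 0.22 each, and their areas did not all go one way. In the hRPGR bleb GFAP, CD44, LCN2 and VIM were lower in the left eye than in the right, as were LCN2 and CLU in the uninjected area. Without 1 library the difference ran from -0.28 to 0.62 for GFAP, -0.13 to 0.53 for CD44, -0.67 to 2.01 for LCN2 and -0.0828 to 0.331 for CLU, and it was below 0 for each of them without either mScarlet library, and for CLU also without either hRPGR library. The areas labelled uninjected of the 2 animals were also compared, although the left NHP1 and the right NHP2 library held transgene UMIs. Of 5 members 0 were called, none had an unadjusted p under 0.05 and DESeq2 called none, where 0.108% of 13014 genes were called by edgeR. GFAP was at -0.91 in NHP2 relative to NHP1 (edgeR adjusted p = 0.733) and CD44 at -0.97 (edgeR adjusted p = 0.693), CLU at 0.34, CRYAB at 0.12 and VIM at -0.07, and LCN2 was too low to be tested. The 2 eyes of NHP1 lay further apart in GFAP and CD44 than the means of the animals did.

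The share of Müller cells with a GFAP UMI was higher in each bleb library than in the uninjected area of NHP2. After each cell was thinned to 3000 UMIs, and shallower cells were left out, it was 15.1% (exact 95% Clopper-Pearson interval 12 to 18.6) in the right and 12.1% (10.1 to 14.3) in the left uninjected library of NHP2. It was 25.8% (22.4 to 29.4) and 17.4% (14.6 to 20.5) in the hRPGR bleb and 26.4% (22.5 to 30.6) and 45.5% (41.3 to 49.8) in the mScarlet bleb. In NHP1 it was 10.2% (7.38 to 13.7) on the right and 21.7% (19.0 to 24.7) on the left. Thinning left out 156 to 403 cells per library, and without it the shares were 25.6% and 22.1%, 35.0% and 28.4%, 32.5% and 51.3%, and 23.1% and 31.1% in the same order, so that on the right the hRPGR bleb then lay above the mScarlet bleb. Rods, which should lack GFAP, gave 0.17% to 0.98% at the same depth. The intervals cover counting error only. The 4 bleb libraries lay 15.2 percentage points above the 2 uninjected ones of NHP2, with a two-sided exact permutation p of 0.2, where the 15 arrangements allow no p under 0.0667. For CD44 the difference was 6.26 points (exact permutation p = 0.2), and for LCN2 1.35 points (exact permutation p = 0.133), and for CRYAB -2.78 points (exact permutation p = 0.2). VIM and CLU were found in nearly all Müller cells, at means of 98.2% and 97.4% in the uninjected area.

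**Figure D3:**
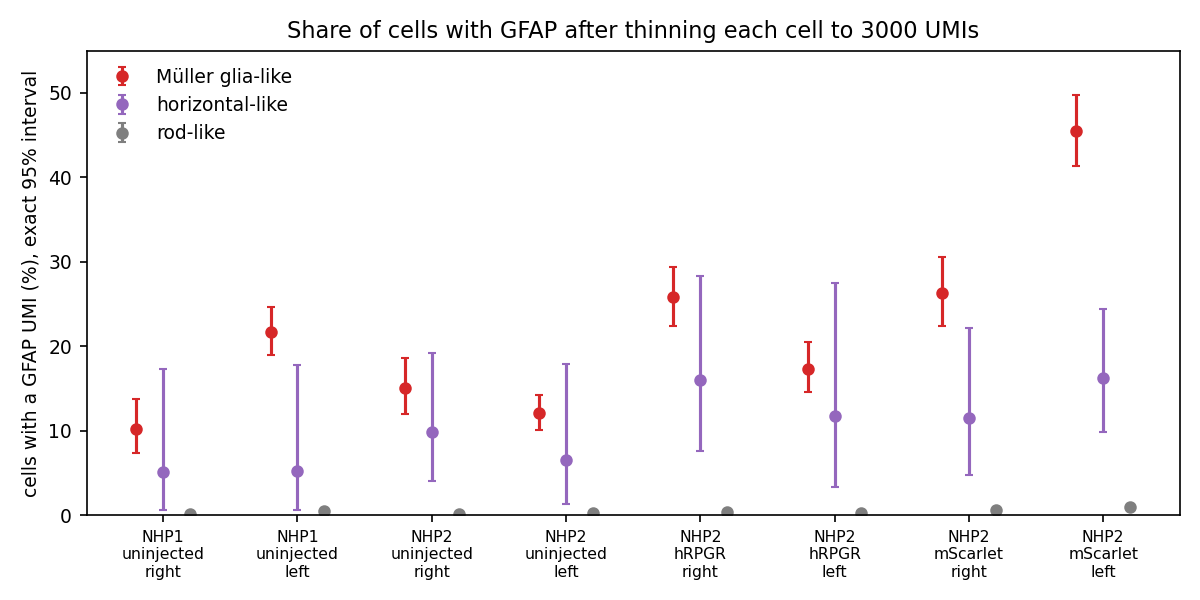
Share of cells with a GFAP UMI at 3000 UMIs per cell (vertical axis, %) in each of 8 libraries (horizontal axis) for Müller glia-like, horizontal-like and rod-like cells; points are shares and bars exact 95% intervals. The left mScarlet library is highest at 45.5% of Müller cells, and rods stay at or under 0.98% in all libraries.

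Cells with several GFAP UMIs were more frequent in the blebs. The highest thinned Müller cell held 2 and 9 GFAP UMIs in the uninjected area of NHP2 (right, then left), 20 and 17 in the hRPGR bleb, 27 and 25 in the mScarlet bleb, and 3 and 17 in NHP1. Cells with 3 or more GFAP UMIs made up 0% and 0.806% in the uninjected area of NHP2 (right, then left), 5.0% and 3.57% in the hRPGR bleb, and 7.17% and 18.1% in the mScarlet bleb. In NHP1 they made up 0.525% and 2.36%. Each of the 4 bleb libraries thus had a larger share of such cells than each of the 4 libraries labelled uninjected.

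The other members were compared between thinned Müller cells with and without GFAP in the same library, as a description with no test, since cells of 1 library are not replicates. CD44 was higher in the cells with GFAP in 7 of 8 libraries, by a median ratio of 1.67 over the 7 ratios that could be given. In the right mScarlet library it was at 115 CPM in cells with GFAP and 29.6 in cells without, and in the left one at 133 and 58.1. LCN2 was higher with GFAP in 6 of 8 libraries. In the left mScarlet library, 254 cells with GFAP held 32 LCN2 UMIs and 304 cells without it held 1, and in the left NHP1 library 184 cells with it held 52 and 662 without it 11. VIM was higher with GFAP in 8 of 8 libraries, by ratios of only 1.06 to 1.17. CLU was higher in 6 and CRYAB in 7 of 8, with ratios of 0.847 to 1.36 and 0.931 to 1.21. RLBP1 and GLUL, the homeostatic retinaldehyde binding protein and glutamine synthetase, were higher with GFAP in 4 and 3 of 8 libraries, and the summed astrocyte markers in 4 of 8, with ratios of 0.772 to 1.23.

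Across the 8 libraries, GFAP and CD44 were each the gene most like the other. By Pearson's r of log2(CPM + 1) over the 8 libraries, CD44 was the gene most like GFAP among 9488 genes (r = 0.98), followed by BIRC3 (0.96) and PSENEN (0.95). POFUT1 (0.97) and EXD3 (0.96) followed GFAP in likeness to CD44. TSHZ1, LLPH and ACBD4 were most like VIM (0.94, 0.91 and 0.90), NECTIN2, LTBR and GLMP most like CLU (0.99, 0.99 and 0.98), and POP5, LRRFIP1 and a copy of RPS27A most like CRYAB (0.97, 0.95 and 0.95). These values describe likeness only, since the libraries share 2 animals and 4 eyes and the genes were picked as the most alike of many.

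**Figure D4:**
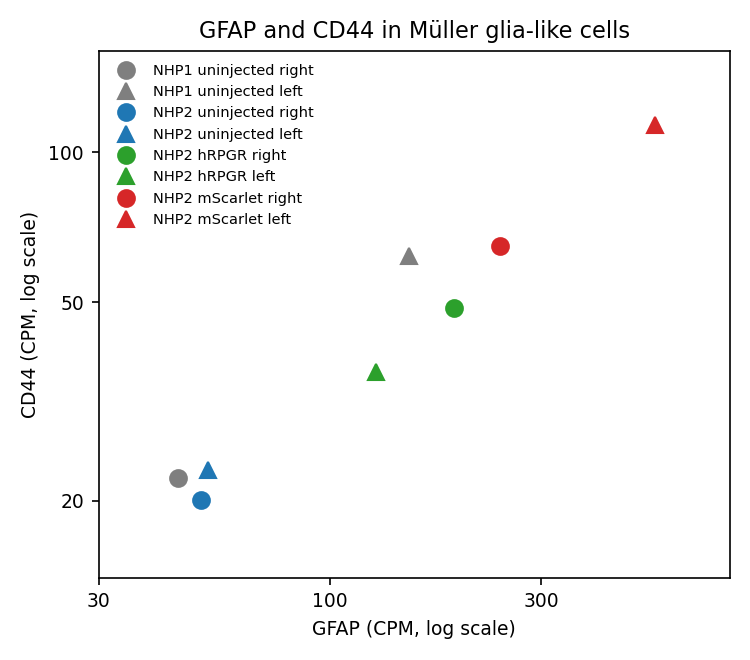
GFAP (horizontal axis) against CD44 (vertical axis) in Müller glia-like cells, both in CPM on log scales; each point is a library, coloured by group, with circles for right and triangles for left eyes. The 2 uninjected NHP2 libraries and the right NHP1 library lie at the low end and the left mScarlet library, at 542 and 114 CPM, at the high end.

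Beyond the members, some genes of reactive glia rose in Müller glia of the mScarlet bleb. Of 39 further genes of reactive glia, 31 were tested. Of these edgeR called 2 as higher and none as lower, where it called 0.324% of all genes. Called or not, 18 were higher and 13 lower, and the list's median was 0.18. SERPINA3, a protease inhibitor of the acute phase, stood at 0 and 0.646 CPM in the uninjected area of NHP2 (right, then left), 11.7 and 11.8 in the hRPGR bleb, and 74.7 and 102 in the mScarlet bleb (edgeR adjusted p = 0.00539). CP, the copper carrier ceruloplasmin, stood at 295 and 186, 508 and 626, and 943 and 1240 in the same order, and rose by 2.11 on the log2 scale in the mScarlet bleb (SE 0.275, edgeR adjusted p = 0.0482). In NHP1 SERPINA3 stood at 0.988 and 6.19 CPM and CP at 557 and 567, so that CP of NHP1 lay within the range of the hRPGR bleb and above the uninjected area of NHP2 (log2 difference of NHP2 from NHP1 -1.21, edgeR adjusted p = 0.474). In the mScarlet libraries nearly all SERPINA3 UMIs lay in cells with GFAP. In the left one, 254 thinned cells with GFAP held 141 SERPINA3 UMIs and 304 cells without it held 0, and in the right one 125 cells with it held 66 and 349 without it 1. In the right hRPGR library 160 cells with GFAP held 16 and 460 without it 1, whereas in the left one 117 cells with it held 11 and 556 without it 10. In the hRPGR bleb none of the list was called, and its median was 0.00. The call of SERPINA3 held in 12 of 14 other settings and was lost without the left mScarlet library and in cluster 15 alone (edgeR adjusted p = 0.0941 and 0.0562). That of CP held in 6 of 14 and was lost with a replicate block for the eye (edgeR adjusted p = 0.114) and without either mScarlet library, either hRPGR library or the left uninjected one (edgeR adjusted p from 0.0881 to 0.317).

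Of 19 genes of the gp130 receptor and STAT3 signal, a main route to GFAP in glia, 12 were tested. Of these edgeR called 1 as higher in the mScarlet bleb, where it called 0.324% of all genes. JAK2, a kinase of that receptor, stood at 43.5 and 43.2 CPM in the uninjected area (right, then left), 48.6 and 43.7 in the hRPGR bleb and 84.4 and 77.2 in the mScarlet bleb, a log2 difference of 0.83 (SE 0.107, edgeR adjusted p = 0.0468). The list's median was 0.48 in the mScarlet bleb, with 9 higher and 3 lower, and 0.11 in the hRPGR bleb. STAT3 and OSMR, singled out after their values were seen, differed by 0.73 and 1.13 in the mScarlet bleb (edgeR adjusted p = 0.109 and 0.0838), and SOCS3, a target of the signal, by -0.09 (edgeR adjusted p = 0.974). Among 19 tested of 20 genes induced by interferon, edgeR called 3 as higher in the mScarlet bleb and 1 in the hRPGR bleb. Over all genes it called 0.324% and 0.00771%. Called or not, 11 were higher and 8 lower in the mScarlet bleb, with a median of 0.07. In the hRPGR bleb 9 were higher and 10 lower, with a median of -0.03. CXCL10, a chemokine for T cells, stood at 0.414 and 0.753 CPM in the uninjected area, 145 and 160 in the hRPGR bleb and 866 and 724 in the mScarlet bleb (edgeR adjusted p = 0.000203 and 4.74e-05). It was also higher in the mScarlet than in the hRPGR bleb, by 2.33 (edgeR adjusted p = 0.0355). Over the 14 other settings this log2 difference ran from 0.18 to 2.44, so that it nearly vanished in the lowest of them. GBP3, a guanylate-binding protein, and IRF1, a transcription factor of the response, rose by 4.82 and 2.58 in the mScarlet bleb (edgeR adjusted p = 0.0216 and 0.0285). The fitted differences of CXCL10 and SERPINA3 from the uninjected area rest on few UMIs there and are not printed. With the replicate block the edgeR adjusted p was 0.099 for JAK2, 0.0608 for GBP3, 0.0673 for IRF1 and 0.109 for CXCL10 between the blebs, and the calls held in 5, 10, 7 and 6 of 14 other settings. Without the left mScarlet library none of these 4 calls held (edgeR adjusted p = 0.297, 0.0941, 0.131 and 0.226). Those of JAK2 and CXCL10 were lost without the right mScarlet library (edgeR adjusted p = 0.36 and 0.326), those of JAK2, IRF1 and CXCL10 without either hRPGR library (edgeR adjusted p from 0.0835 to 0.581), and those of JAK2 and IRF1 without the left uninjected library (edgeR adjusted p = 0.164 and 0.0981). CXCL10 kept its calls against the uninjected area in 13 of 14 settings and lost both in cluster 15 alone (edgeR adjusted p = 0.306 for the hRPGR and 0.0877 for the mScarlet bleb).

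Of 18 homeostatic genes of Müller glia, which serve ion, glutamate and retinoid handling, all were tested and none was called in any comparison. The list's median was -0.03 in the mScarlet bleb and -0.05 in the hRPGR bleb. TF, the iron carrier transferrin, and PTGDS, a prostaglandin synthase, were its highest members and differed by -0.38 and 0.07 in the mScarlet bleb (edgeR adjusted p = 0.401 and 0.914).

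The members were not equally particular to Müller glia, and the order of their levels over 10 cell classes and the free RNA of barcodes with few UMIs is a description. GFAP was highest in Müller glia (median 139 CPM, range 45.2 to 542 over 8 libraries) and next in horizontal cells (50.7, 34.5 to 82.9), and these ranges overlapped. Amacrine cells followed (17.4, 7.12 to 34.0). Free RNA (11.5, 3.44 to 53.8) reached into the ranges of all 3 classes, while within each library Müller glia and horizontal cells lay above its free RNA, by little in horizontal cells of the left mScarlet library (58.8 against 53.8), and all other classes had medians under 3 CPM. The share of thinned horizontal cells with a GFAP UMI was 5.13% to 16.2%, against at most 0.98% of rods. Among the named classes NES was highest in horizontal cells (median 10.7 CPM, 0 to 22.3) and amacrine cells (3.93, 1.28 to 6.85), and its median in Müller glia was 0.285. Clusters left without a name, with 15.8% to 51.3% of the cells of a library, are outside this order. Of them, cluster 32 held NES at 61.2 CPM over all libraries, and cluster 50, with pericyte markers, held NES at 44.7 and GFAP at 226 CPM. VIM, CLU and CRYAB were at or near their highest in Müller glia. VIM stood at a median of 6208 CPM there, 973 in T and NK cells and 429 in myeloid cells, without overlap between Müller glia and either. CLU stood at 3590 CPM in Müller glia and 4115 in the retinal pigment epithelium of 3 libraries, which overlapped, and CRYAB at 1593 in Müller glia and 583 in the pigment epithelium. CD44 was highest in T and NK cells (522, 377 to 603) and myeloid cells (291, 126 to 755), far above its 42.4 in Müller glia (20.1 to 114). LCN2 was highest in cones (22.2, 13.8 to 26.7) and overlapped there with Müller glia (8.21, 0.247 to 32.5), and in rods it was at 2.07 beside 1.5 in free RNA.

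**Figure D5:**
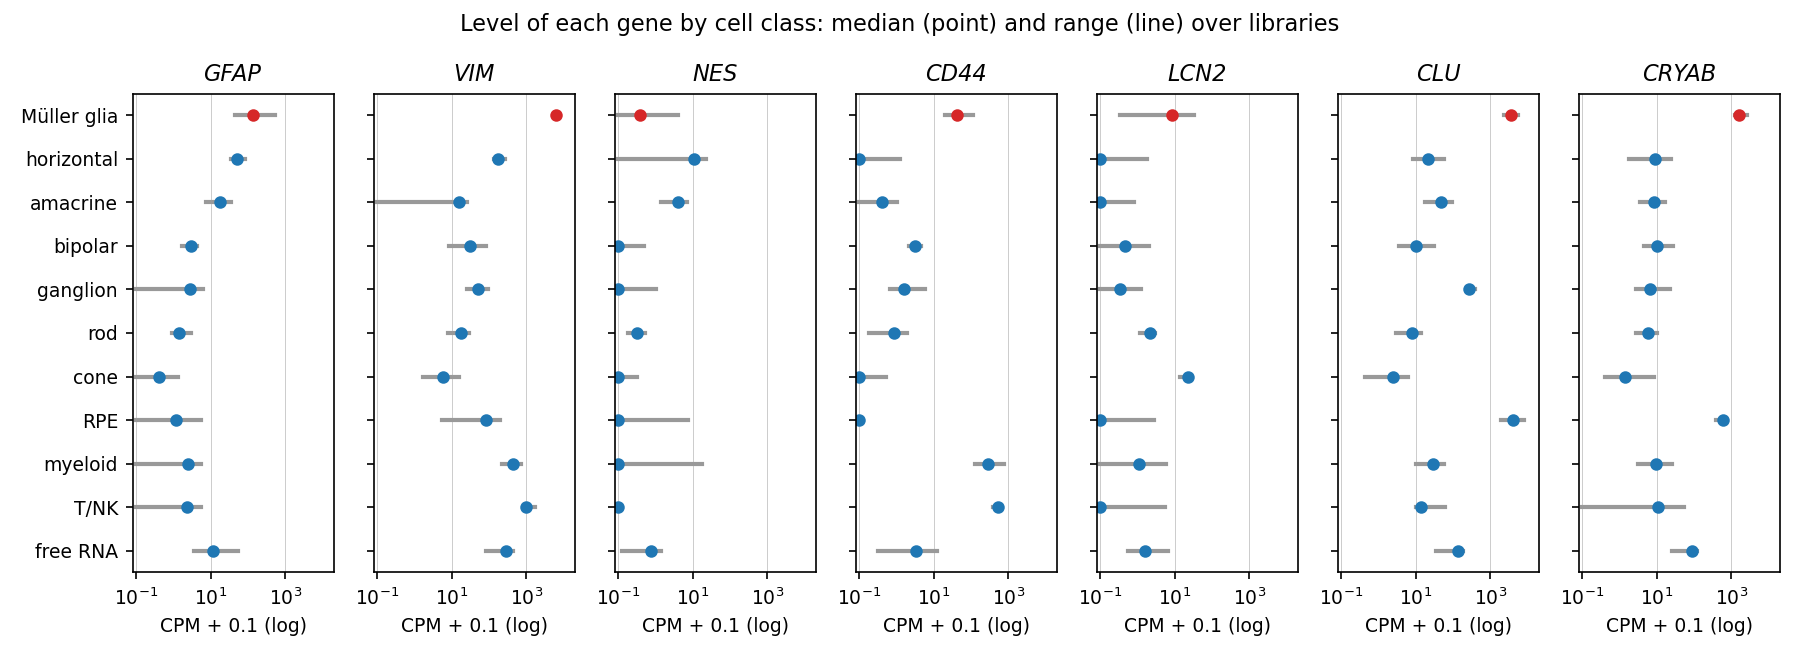
Level of 7 genes by cell class: points are medians and lines ranges over libraries, on log horizontal axes of CPM + 0.1. GFAP, VIM and CRYAB have their highest median in Müller glia, CD44 in T and NK cells, LCN2 in cones, NES in horizontal cells and CLU in the pigment epithelium.

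In the other classes edgeR called 0 members in either bleb against the uninjected area, with 2 of 28 pairs of member and class in the mScarlet bleb and 4 of 28 in the hRPGR bleb at an unadjusted p under 0.05. Over all genes the share under that p was 5.71% to 21.9% by class in the mScarlet bleb and 2.11% to 6.43% in the hRPGR bleb. DESeq2 called 1, CD44 in myeloid cells of the mScarlet bleb, where it called 489 genes (4.37%) in all. Over all genes, the share called in the mScarlet and hRPGR bleb was 1.15% and 0% in rods, 1.59% and 0.0175% in cones, 0.793% and 0% in bipolar cells, 0.274% and 0.116% in horizontal cells, 0.0771% and 0% in amacrine cells, 3.3% and 0% in myeloid cells and 0% and 0% in T and NK cells. CD44 in myeloid cells stood at 126 and 279 CPM in the uninjected area (right, then left), 691 and 225 in the hRPGR bleb, and 662 and 755 in the mScarlet bleb. The mScarlet bleb lay above the uninjected area in both eyes, by 1.92 on the log2 scale (SE 0.489, edgeR adjusted p = 0.0680, and DESeq2 adjusted p = 0.00637), and the hRPGR bleb did so in the right eye alone (1.14, edgeR adjusted p = 0.813). The myeloid class pooled clusters 25 and 34, in which CD44 stood at 788 and 76.6 CPM over all libraries. The part of their mix in this difference was not tested. GFAP in horizontal cells stood at 43.8 and 49.6, 82.9 and 62.1, and 38.9 and 58.8 CPM in the order of areas given for CD44, so that here the hRPGR bleb was the higher one (0.66, SE 0.267, edgeR adjusted p = 1.0). GFAP in rods was higher in the mScarlet bleb by 1.15 (edgeR adjusted p = 0.115), at a level below that of free RNA. LCN2 in cones was lower in the hRPGR bleb by -0.58 on the log2 scale (SE 0.192, edgeR adjusted p = 0.580), at 13.8 and 16.9 against 24.9 and 20.2 CPM, while the same gene was higher there in Müller glia.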

How the data were processed

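Retina of 8 areas and eyes of 2 animals was dissociated with papain and sequenced as single-cell libraries. The authors aligned the reads to Mmul_10 with added transgene features in Cell Ranger (8.0.1 per the file headers), and the deposited tables hold raw counts of UMIs per feature and barcode, before cell calling. Unnamed features were given symbols from RefSeq's table for 521 IDs, beside 16678 features with a symbol in the files. The members and gene lists were chosen with earlier results of these data known, and the limits for naming clusters were set after the clusters had been seen.

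A barcode was taken as a cell from 1500 UMIs and 300 genes upwards, if no more than 20% of its UMIs were mitochondrial (91796 cells), and 8604 doublets (9.37%) with the highest Scrublet scores were removed, at a rate of 0.8% per 1000 cells in a library. Cells were clustered in scanpy 1.11.5 on 3000 variable genes, with the members kept out of them, 40 principal components, 15 neighbours and resolution 2. A cluster was named "like" a class where at least 3 of its markers were raised 2-fold or more over the median cluster at least 1 was among the 10 leading genes, no other class had more there, the mean log2 rise exceeded the runner-up's by a factor of 1.75 or more, and no haemoglobin gene was among the first 2, and 24 of the 58 clusters stayed unnamed. Free RNA was read from barcodes with 100 to 1000 UMIs. UMIs were summed per library and class and tested with edgeR 4.0.16 (quasi-likelihood, TMM, filterByExpr, Benjamini-Hochberg over all genes tested, threshold 0.05, in R 4.3.3). The 6 libraries of NHP2 shared 1 fit with area and no block, and the eyes were compared with the area as a term. An SE is the log2 fold change divided by the root of the F statistic. The script was tested on simulated data. Shares were tested by exact permutation.

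Libraries of NHP2 with the same replicate number come from the same eye, by the labels. Their left-minus-right differences correlated at 0.058, 0.076 and -0.026 over 12966 genes.

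Alternatives were a block for the eye, DESeq2 1.42.0, its size factors in edgeR, no filter on low counts, subtraction of free RNA, cells with at least 3000 UMIs, other thinning depths and leaving out each library. Fits on cluster 15 alone, which had cells of every library, and without the cluster that held PAX2 were chosen after seeing the data. All members were named, and from each list up to 4 called genes with the lowest p or, where none was called, the 2 with the highest mean CPM. For 5 members the 3 genes most alike among those with a mean of at least 10 CPM were named.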

Additional observations from a re-analysis of the deposited data

Results flagged for a closer look

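Both differences between cell classes below were noted because every eye moved one way in one class and the other way in the second, and neither difference was tested. GFAP in the hRPGR bleb was above the uninjected area in both eyes in Müller glia, and in amacrine cells it was below it in both, at 9.45 against 21.3 CPM in the right eye and 16.3 against 18.6 in the left (mean log2 ratio -0.682). These amacrine values rest on 80 against 26 cells in the right eye and 44 against 121 in the left. Amacrine cells of all 8 libraries held 135 GFAP UMIs, and free RNA held GFAP at 3.44 to 53.8 CPM. LCN2 in the hRPGR bleb was above the uninjected area in both eyes in Müller glia, and in cones it was below it in both, at 13.8 against 24.9 CPM in the right eye and 16.9 against 20.2 in the left (mean log2 ratio -0.554).

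Transgene reads were present in libraries labelled uninjected, whereas the comparisons above use no transgene feature. The left library of NHP1 held 32627.0 UMIs of huRPE65, and the right one held 13. The right uninjected library of NHP2 held 9748.0 UMIs of coRPGR (139 CPM of all its cells), the left one 0, and the right and left hRPGR libraries 282647 and 65021. In the right mScarlet library 1292 UMIs of coRPGR were counted, and in the left one 20. GFAP, CD44 and LCN2 of Müller glia were higher in the left than in the right NHP1 library, and in the uninjected area of NHP2 GFAP and CD44 differed little between the eyes. The part of the transgene in these values was not tested.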

How the results depend on the processing

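Members called in the mScarlet bleb against the uninjected area were 0 by edgeR and 2 (GFAP and CD44) with DESeq2, with no filter on low counts and in cells with at least 3000 UMIs; leaving out 1 library gave 0 to 2, with 2 without the right mScarlet library (edgeR adjusted p = 0.0382 for GFAP and 0.0448 for CD44). With a replicate block for the eye, which pairs the areas, 5 genes were called in place of 42, and GFAP and CD44 each had an edgeR adjusted p of 0.119. The block changed no other call of a member, and it moved the genes called between the animals from 14 to 60. All genes called in the mScarlet bleb were 410 with DESeq2, 154 with no filter, 3 with free RNA subtracted, 79 in cells with at least 3000 UMIs and 10 in 1 shared cluster, and 1 to 434 without 1 library: 1 without the left and 14 without the right mScarlet library, 434 if the right uninjected library was left out, 12 if the left was, and 7 if either hRPGR library was. For the hRPGR bleb (1 gene) they were 25 with DESeq2, 3 with no filter, 0 in 1 shared cluster and 1 to 10 without 1 library, with 10 without the right uninjected library. For the mScarlet against the hRPGR bleb (1 gene) they were 160 with DESeq2, 8 with no filter, 0 with free RNA subtracted, 0 in cells with at least 3000 UMIs, 6 in 1 shared cluster and 0 to 43 without 1 library, with 43 without either uninjected library. For the eyes (0 genes) they were 25 with DESeq2 and 0 to 21 without 1 library, with 21 without the left and 4 without the right mScarlet library. For the animals (14 genes) they were 107 with DESeq2, 94 with no filter and 0 to 49 without 1 library, with 0 without either NHP1 library, 3 without the right and 49 without the left uninjected library of NHP2. In the other classes, members called in the mScarlet bleb were 1 with DESeq2 and 0 to 1 without 1 library, CD44 in myeloid cells without either hRPGR library. The causes of these differences were not tested.

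In 1 shared cluster the log2 difference of VIM in the mScarlet bleb was 0.068, and between the blebs that of LCN2 was 0.0061 and that of CRYAB 0.0944, each of the other sign than over all Müller cells, as were APOE (-0.0664) and PTGDS (-0.1382) in the mScarlet bleb, and SOCS3 with the block (0.2501) and with DESeq2 (0.0274); with no thinning the share differences of VIM and CLU were -0.319 and -0.09 percentage points. Without 1 library the log2 difference ran from -0.12 to 0.10 for VIM, -0.88 to 3.22 for SOCS3 and -0.1019 to 0.2694 for PTGDS in the mScarlet bleb, -0.61 to 0.13 for CRYAB in the hRPGR bleb and -2.40 to 0.42 for LCN2 between the blebs; between the eyes from -0.28 to 0.62 for GFAP, -0.13 to 0.53 for CD44, -0.67 to 2.01 for LCN2 and -0.0828 to 0.331 for CLU; between the animals from -1.51 to 0.20 for GFAP and -0.28 to 0.46 for CRYAB; in the mScarlet bleb from -0.25 to 0.31 for GFAP in horizontal cells, -0.0545 to 0.547 for CD44 in T and NK cells and -0.0845 to 0.230 for LCN2 in cones; and in the hRPGR bleb from -0.15 to 0.45 for CD44 in T and NK cells. Share differences ran from -0.642 to 1.34 points for VIM, -0.105 to 0.026 for NES and -0.569 to 1.69 for CLU. GFAP, CD44 and LCN2 in Müller glia of either bleb against the uninjected area, and CLU in the same, kept their sign in every setting run. A UMI count of 3, the floor, stood for 0.323 to 0.741 CPM in Müller glia, so that NES levels under it were not detectable at this depth.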

Other observations

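Apart from the genes of it that rose in the mScarlet bleb, most tested genes of the interferon list went one way in Müller glia between the animals and between the eyes of NHP2. The list as a whole was not tested, and its medians were not taken again without single libraries. Between the areas labelled uninjected of the animals, 16 of 17 tested genes were higher in NHP2, with a median log2 difference of 4.10, and none was called by edgeR. Between the eyes of NHP2, 17 of 19 were lower in the left, with a median of -2.02, and none was called. MX1, an antiviral GTPase, stood at 2.7 CPM in the right and 4.8 in the left NHP1 library, 3236 and 30.8 in the uninjected area of NHP2, 2957 and 142 in the hRPGR bleb and 1041 and 475 in the mScarlet bleb. For MX1 the uninjected right library, the one with coRPGR, was thus the highest, although GFAP was among its lowest there, whereas CXCL10, GBP3 and IRF1 had the order of the areas that GFAP had, in both eyes.

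LCN2 was also found in a group of cells that the classes above leave out. Cluster 56, which was led by SOCS3 and held rod markers but stayed unnamed, held 811 LCN2 UMIs in 895 cells of the left mScarlet library (156 CPM), 0 in 336 cells of the right mScarlet library and 0 in 43 cells of the right hRPGR library. Rods of the named clusters had a median of 2.07 CPM. BIRC3, an inhibitor of apoptosis and the second gene in likeness to GFAP, stood at 2.48 and 2.80 CPM in the uninjected area of NHP2 (right, then left), 14.1 and 8.53 in the hRPGR bleb and 25.1 and 26.2 in the mScarlet bleb. Of the reactive glia list, 23 of 31 tested genes were higher in the left eyes of NHP2 with a median of 0.32, and none was called. FOS, an immediate early gene that dissociation can induce, was the highest of them and differed by 1.40 (edgeR adjusted p = 1.0).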
